A study of Mus musculus with 1 sample.

Results

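The oxygen-sensing pathway was examined through 10 genes: the HIF subunits Hif1a, Epas1 and Arnt, the ubiquitin ligase subunit Vhl, the prolyl hydroxylases Egln1, Egln2 and Egln3, and the target genes Car9, Bnip3 and Ndrg1. They were taken by gene name from the deposited expression table, where each had 1 row, and they are 10 of its 23386 genes. The table describes 1 RNA sequencing library, made by SOLiD protocols from Trizol-extracted total RNA of mouse fibroblasts expanded in culture. By its labels the culture came from normal pancreas of a mixed C57BL/6 and BALB/c animal that lacked the Cre (tf1acre-) and carried floxed alleles written Tgfrb2flox/flox. The title sets normal fibroblasts against cancer-associated fibroblasts from pancreas tumours, but libraries of the second kind were not analysed here. The value column of the table carries a CAF code although the label reads Normal Fibroblast, so which kind of culture it holds is not settled. The age of the animal, the number of animals and the oxygen level of the culture are not stated in the sources used here.

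Cells sense oxygen through enzymes that use it as a substrate. In oxygen, prolyl hydroxylases of the EGLN family mark the HIF alpha proteins, the VHL ubiquitin ligase binds the marked form, and the proteasome destroys it. When oxygen falls the alpha subunit persists, pairs with ARNT and switches on genes of glycolysis, blood vessel growth, pH control and mitochondrial turnover. In pancreas tumours, which are rich in stroma and poorly perfused, this pathway is studied in both cancer cells and fibroblasts. Because HIF alpha is controlled mainly at the protein level, its mRNA level does not measure its activity.

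The reads recovered over all genes of the table summed to 52494688, of which 20559 protein-coding genes took 48237651. Reads assigned to no gene are not known. With 1 library there is no replicate and no test between conditions. Levels are therefore described, and the 95% intervals cover counting error alone, which says nothing of the spread between cultures. Levels of different genes are compared as reads per kilobase of exon and 1000000 reads (RPKM). The level of a gene alone is also given per 1000000 reads (CPM). The defining fibroblast markers were abundant: Col1a1, Col1a2, Col3a1, Pdgfra, Pdgfrb, Thy1, Dcn and Vim lay between 36.5 and 603 RPKM. Markers of other cells were present too. Summed RPKM, set against the fibroblast sum, came to 10.9% for 5 mesothelial genes, 7.27% for 6 acinar genes, 1.43% for 7 endothelial genes, 0.866% for 5 epithelial genes and 0.598% for 5 macrophage and leukocyte genes. The 5 mesothelial genes lay between 15.7 and 67.6 RPKM. Upk1b (67.6), Lrrn4 (58.7) and Upk3b (41.0 RPKM) exceeded the fibroblast marker Pdgfra (36.5 RPKM). Kdr and Flt1, at 20.1 and 7.55 RPKM, made up most of the endothelial sum of 28.0 RPKM. The acinar factor Ptf1a (6 reads) and the endothelial sialomucin Emcn (5 reads) were the marker genes under 10 reads. The part of such cells in the levels below was not tested, and fewer cells of a type cannot be told apart from less RNA per cell. Tgfbr2, the gene that the label writes as Tgfrb2, had 10560 reads (201 CPM), a sum over the whole gene that does not check a floxed exon.

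All 10 genes had at least 10 reads, as did 67.6% of all protein-coding genes in the table. Of the 10, 7 lay above 4.94 RPKM, the median of the protein-coding genes with at least 10 reads. As a median it was exceeded by 6940 of the 13880 detected ones with a known length. Of all protein-coding genes with a known length, 34.0% exceeded it. The median of the 10 genes was 10.03 RPKM. They spanned from 0.480 RPKM for Car9 to 66.7 RPKM for Hif1a. The order per length ran Hif1a, Egln1, Egln2, Egln3, Ndrg1, Vhl, Arnt, Bnip3, Epas1 and Car9 with the union of annotated exons as gene length. Egln3, Ndrg1 and Vhl, at 10.43, 10.05 and 10.01 RPKM, were neighbours whose counting intervals overlapped. All other neighbours in that order had counting intervals that did not overlap. The middle of the order depended on the length used: with the transcripts of the deposited accessions it ran Hif1a, Egln1, Ndrg1, Egln2, Arnt, Vhl, Egln3, Bnip3, Epas1 and Car9. With the median transcript length Hif1a stayed first and Epas1 and Car9 last, while Egln1 was at place 5 and Ndrg1 at place 2. Likeness of pattern to other genes needs several samples and was not computed.

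**Figure D1:**
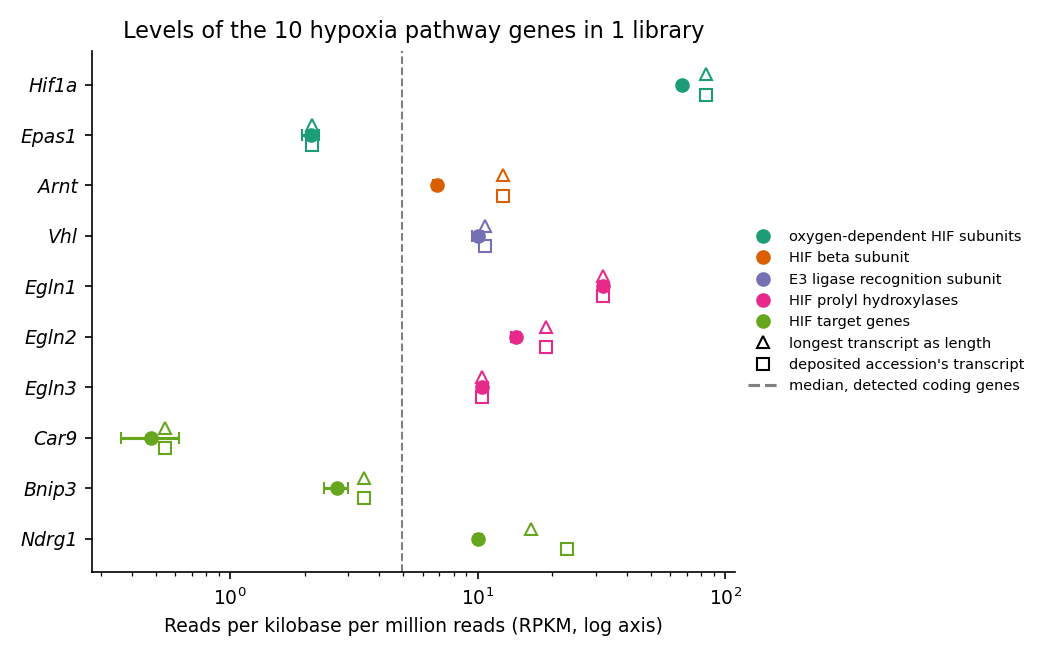
Level of each of the 10 genes in the library labelled normal fibroblast, in RPKM on a log axis. Filled circles use the union of annotated exons as gene length, with exact Poisson 95% intervals, open triangles the longest annotated transcript and open squares the transcript of the deposited accession. The dashed line is at 4.94 RPKM, the middle of the detected protein-coding genes, and Epas1, Bnip3 and Car9 lie left of it under each of these 3 lengths.

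The alpha subunits stood far apart, and Hif1a was the most abundant of the 10 genes. Hif1a (GRCm38 chromosome 12, 73901375 to 73947530, plus strand), whose protein is the broadly expressed oxygen-regulated subunit, had 20633 reads. This gave 393 CPM (exact Poisson interval 388 to 398) and 66.7 RPKM (65.8 to 67.6), a level above that of 97.0% of detected protein-coding genes. Epas1 (chromosome 17, 86753700 to 86833410, plus strand), which encodes HIF-2 alpha and is best known from endothelium, kidney and lung, had 623 reads, or 11.9 CPM (10.95 to 12.8). At 2.12 RPKM (1.96 to 2.30) it lay above 33.3% of detected protein-coding genes. The level of Hif1a per length was 31.4 times that of Epas1 (exact Clopper-Pearson interval 29.0 to 34.1), and Hif1a made up 96.9% of the summed level of the pair. The ratio was 38.7 with the transcripts of the deposited accessions as lengths and 55.1 with the median transcript length. Of the 7 endothelial markers in the same library, Pecam1 had 13 reads, Cdh5 17, Tie1 10, Tek 51 and Emcn 5. The VEGF receptor genes Kdr and Flt1, markers of the same list, had 9505 and 5355 reads. The part of endothelial cells in the level of Epas1 was not tested.

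Arnt (chromosome 3, 95434388 to 95497240, plus strand), the beta subunit that both alpha subunits share, had 2883 reads, or 54.9 CPM (52.9 to 57.0). Its level was 6.86 RPKM (6.61 to 7.11). Per length Hif1a stood 9.72 times above Arnt (9.35 to 10.1), while the ratio of Epas1 to Arnt was 0.310 (0.283 to 0.338). Arnt has 11 annotated transcripts, whose exons together span 8007 bases, against 4325 bases for the longest of them. With the longest transcripts as lengths, Arnt had 12.7 RPKM, Hif1a stood 6.55 times above it and the ratio of Epas1 to Arnt was 0.169.

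Vhl (chromosome 6, 113623959 to 113631633, plus strand) encodes the subunit that recognises hydroxylated HIF alpha for ubiquitination. It had 1575 reads, or 30.0 CPM (28.5 to 31.5), and 10.01 RPKM (9.52 to 10.5). This was above 68.6% of detected protein-coding genes, 58.9% with the lengths of the deposited accessions and 80.6% with the median transcript length. The level of Hif1a per length was 6.66 times that of Vhl (6.33 to 7.01), 7.74 times with the lengths of the deposited accessions and 3.73 times with the median transcript length.

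Among the prolyl hydroxylases Egln1 led. Egln1 (chromosome 8, 124908587 to 124949324, minus strand), which encodes PHD2, the main HIF hydroxylase of oxygenated cells, had 6023 reads, or 115 CPM (112 to 118). Its 31.9 RPKM (31.1 to 32.7) placed it second of the 10 genes and above 90.9% of detected protein-coding genes. That share was 85.6% with the lengths of the deposited accessions and 67.8% with the median transcript length. Egln2 (chromosome 7, 27158658 to 27166802, minus strand), which encodes PHD1, had 2095 reads and 14.3 RPKM (13.6 to 14.9). Egln3 (chromosome 12, 54178981 to 54203860, minus strand) encodes PHD3 and is itself induced by HIF in many cells. It had 1457 reads and 10.43 RPKM (9.90 to 10.98).

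Egln1 thus took 56.4% of the summed level of the 3 hydroxylase genes, Egln2 25.2% and Egln3 18.4%. The level of Egln1 per length was 2.24 times that of Egln2 (2.13 to 2.36) and 3.06 times that of Egln3 (2.89 to 3.24), and Egln2 exceeded Egln3 1.37-fold (1.28 to 1.46). The lead over Egln2 depended on the length used, at 1.69 with the transcripts of the deposited accessions and 0.884, the other direction, with the median transcript length. The ratio of Egln2 to Egln3 was 1.82 and 3.46 under the same lengths. Egln1 and Egln3 have 1 annotated transcript each, so the union of exons and the 3 other lengths gave them the same ratio. Hif1a stood 2.09 times above Egln1 (2.03 to 2.15), 2.61 times with the lengths of the deposited accessions and 6.999 times with the median transcript length.

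**Figure D2:**
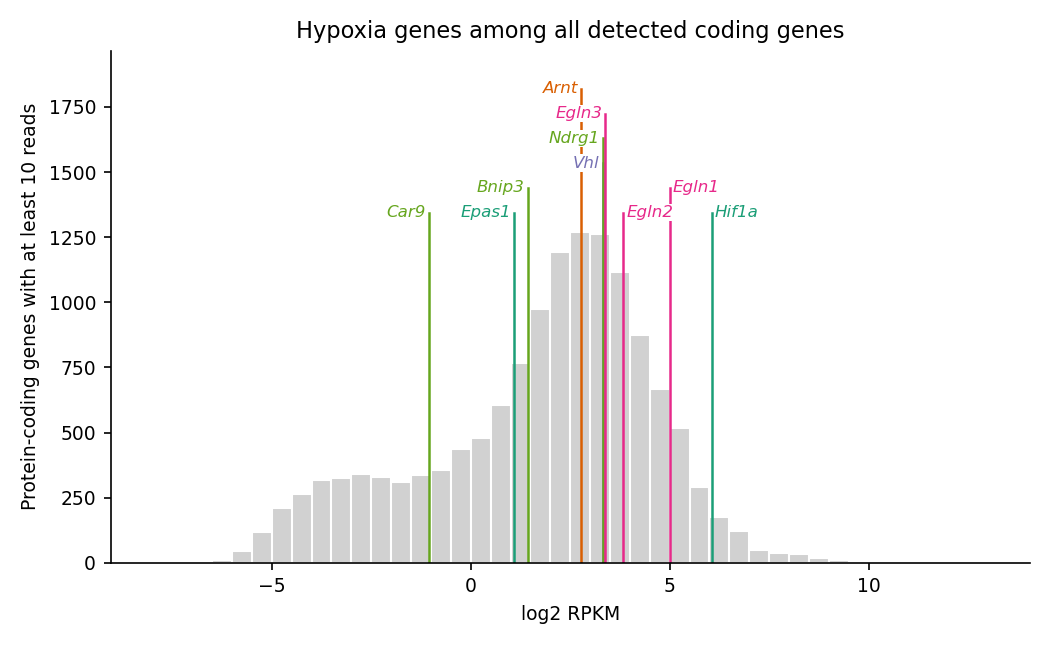
Distribution of log2 RPKM over the 13880 protein-coding genes with at least 10 reads and a known length, in bins of 0.5, with a vertical line at each of the 10 genes. Colours give the role: green-blue for the alpha subunits, orange for Arnt, violet for Vhl, pink for the hydroxylases and light green for the targets. Hif1a and Egln1 lie in the upper tail, and Epas1, Bnip3 and Car9 below the centre.

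The target genes differed widely among themselves, and of the 3, Bnip3 and Car9 lay below the median of detected genes. Ndrg1 (chromosome 15, 66929318 to 66969640, minus strand), which encodes a cytoplasmic stress-response protein induced by low oxygen and by other stresses, had 3479 reads, or 66.3 CPM (64.1 to 68.5). Its level was 10.05 RPKM (9.72 to 10.4). Ndrg1 has 13 annotated transcripts, and its level was 22.9 RPKM with the transcript of its deposited accession (2889 bases) in place of the union of exons (6596 bases), which moved it from the fifth place of the 10 genes to the third. Bnip3 (chromosome 7, 138890836 to 138909519, minus strand), which encodes a mitochondrial membrane protein of the BCL2 family that takes part in the removal of mitochondria, had 320 reads, or 6.10 CPM (5.45 to 6.80). At 2.69 RPKM (2.40 to 3.003) it lay above 37.0% of detected protein-coding genes.

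Car9 (chromosome 4, 43506966 to 43513729, plus strand) encodes carbonic anhydrase IX, a membrane enzyme that controls pH at the cell surface and is widely used as a marker of hypoxic tumour tissue. It was the lowest of the 10 genes, with 58 reads, or 1.10 CPM (0.839 to 1.43). Its 0.480 RPKM (0.364 to 0.620) lay above 18.6% of detected protein-coding genes. Per length Ndrg1 stood 3.73 times above Bnip3 (3.33 to 4.199) and 20.95 times above Car9 (16.2 to 27.7), and Bnip3 5.61 times above Car9 (4.23 to 7.56). With the lengths of the deposited accessions the ratio of Ndrg1 to Bnip3 was 6.61 and that of Ndrg1 to Car9 was 42.0, and with the median transcript length they were 8.20 and 48.7. Ndrg1 made up 76.0% of the summed level of these 3 genes, and 85.1% with the lengths of the deposited accessions.

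Reads of antisense neighbours may enter some of these sums, because the sources used here do not say whether the counting used strand. In the GENCODE annotation the antisense gene Gm45507 covers 22.3% of the exonic bases of Bnip3, Gm12454 covers 9.29% of those of Car9, Gm17035 covers 6.35% of those of Ndrg1 and Gm15283 covers 5.60% of those of Hif1a. A further 2.08% of Ndrg1 is shared with Gm2895 on the opposite strand. Hif1a shares 2.51% of its exonic bases with Gm49321 on the same strand, and Egln2 shares 0.393% with Cyp2t4 on the opposite strand. Arnt, Vhl, Egln1, Egln3 and Epas1 shared no exonic base with another annotated gene.

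HIF binds DNA at a short core, ACGTG or GCGTG, within hypoxia response elements. Promoter windows from 250 bases before to 50 bases after an annotated start were taken from RefSeq on GRCm38. They were found for 8 of the 10 genes, with a second start for Egln2. No window was found for Epas1 or Ndrg1, so the target gene Ndrg1 was not searched. Both cores were searched on both strands, and a palindrome such as CACGTG counts as 2 overlapping matches. The promoters of Car9, Bnip3 and Egln3 are shown because all 3 genes are known to be induced by HIF, Egln3 being a hydroxylase gene as well, and they differ widely in level, and the bases of each match are in capitals. The Car9 window is chr4:43506776-43507075 on the plus strand, the Bnip3 window chr7:138909457-138909756 on the minus strand and the Egln3 window chr12:54203825-54204124 on the minus strand, each written 5′ to 3′ along its gene.
Car9: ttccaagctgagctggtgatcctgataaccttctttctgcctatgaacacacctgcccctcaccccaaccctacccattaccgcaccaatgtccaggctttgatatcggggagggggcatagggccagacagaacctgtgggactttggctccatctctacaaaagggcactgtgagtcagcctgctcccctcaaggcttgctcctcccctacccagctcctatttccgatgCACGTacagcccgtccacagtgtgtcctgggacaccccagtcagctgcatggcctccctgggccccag
Bnip3: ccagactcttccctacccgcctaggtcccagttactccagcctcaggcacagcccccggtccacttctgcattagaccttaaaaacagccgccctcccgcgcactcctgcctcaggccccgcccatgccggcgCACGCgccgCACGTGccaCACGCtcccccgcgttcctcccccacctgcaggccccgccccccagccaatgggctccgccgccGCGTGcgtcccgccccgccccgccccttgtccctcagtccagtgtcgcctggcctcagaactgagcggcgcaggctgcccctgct
Egln3: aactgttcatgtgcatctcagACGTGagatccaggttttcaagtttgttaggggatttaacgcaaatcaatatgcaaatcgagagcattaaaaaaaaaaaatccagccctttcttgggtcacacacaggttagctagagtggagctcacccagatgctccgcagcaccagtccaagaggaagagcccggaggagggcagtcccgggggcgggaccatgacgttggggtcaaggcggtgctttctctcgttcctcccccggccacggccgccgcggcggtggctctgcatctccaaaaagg

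Car9, at 0.480 RPKM, had 1 match, read on the opposite strand at bases -18 to -14 from the start. The human CA9 promoter is known for a HIF element close to its start. Bnip3, at 2.69 RPKM, had 5 matches between bases -117 and -31, of which 2 overlap in 1 palindrome at -108 to -103. Egln3, at 10.4 RPKM, had 1 match at bases -229 to -225. A relation between the number of matches and the level was not tested. Among the other genes, the upstream start of Egln2 had 6 matches and its downstream start 1, Hif1a had 3, Egln1 had 2, Arnt had 1 and Vhl had 0. At the upstream start of Egln2, and likewise in Hif1a, 2 of the matches overlap in 1 palindrome. The Hif1a window (73907617 to 73907916) lies inside the span given above for the gene, and unlike those of the other windows its last bases were not found in an annotated GENCODE transcript of the gene.

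In all, 8 of the 9 windows held a match, as did 43.8% of 32851 promoter windows in the table and 49.3% of the 21263 windows of protein-coding genes. At least 4 matches were found in 5.03% of the protein-coding windows, and in those of Bnip3 and of the upstream start of Egln2. For the other HIF targets listed here, 35 of 45 windows, from 29 genes, held a match. For the other sensing genes and subunits it was 11 of 18 windows, from 17 genes. The 9 windows were between 49.3% and 86.0% G and C, and base composition was not matched. A match describes letters only and shows no binding, and elements outside the windows were not searched.

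**Figure D3:**
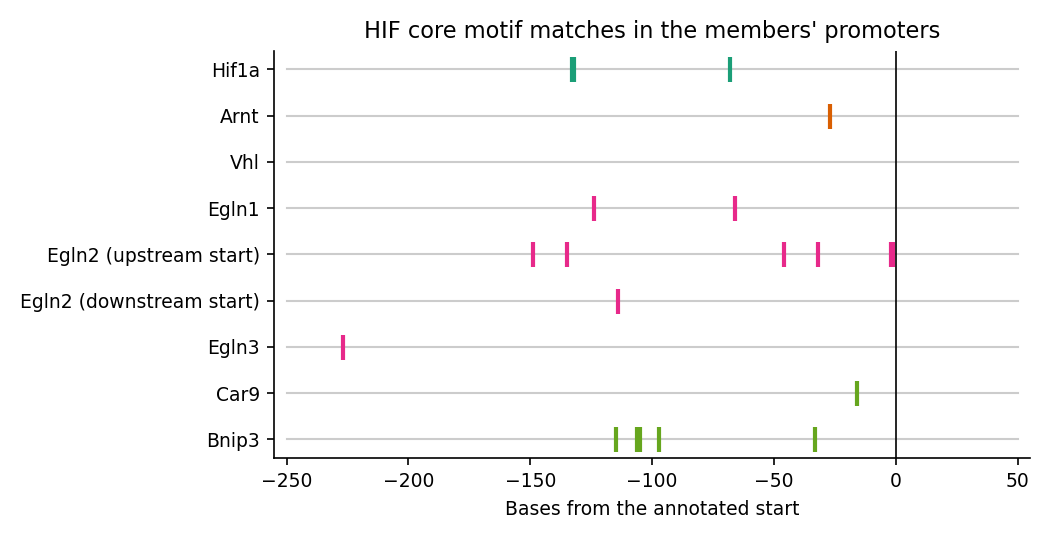
Positions of matches to the HIF core in 9 promoter windows of 8 genes, as bases from the annotated start (0 on the axis), with the centre of each match as a tick and colours by role as in the distribution plot. Bnip3 and the upstream start of Egln2 carry the most matches, 5 and 6, and Vhl carries 0.

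The other genes of sensing and HIF turnover were all present. Each of the 13 reached 10 reads, 9 exceeded 4.94 RPKM, the median over detected coding genes, and their own median was 8.51 RPKM. Os9, which encodes an endoplasmic reticulum lectin also known to bind HIF-1 alpha, had 51.1 RPKM. Elob and Eloc, listed in the table as Tceb2 and Tceb1, encode the elongins that join VHL to its cullin, and had 35.5 and 24.0 RPKM. Ado, which encodes a thiol dioxygenase that senses oxygen outside the HIF system, had 26.8 RPKM. The lowest were P4htm, a transmembrane prolyl hydroxylase gene, at 0.950 RPKM and the deubiquitinase gene Usp20 at 1.62 RPKM. Hif1an, named after its value was seen, encodes FIH, the asparaginyl hydroxylase that limits HIF transactivation. It had 14.8 RPKM (14.4 to 15.2), and Egln1 stood 2.15 times above it (2.07 to 2.23), or 1.15 times with the median transcript length.

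Other subunits and coactivators ranged from 0.0135 to 20.2 RPKM. Of the 10, 8 reached 10 reads, 4 exceeded the median over detected coding genes, and the list median was 1.10 RPKM. The dioxin receptor gene Ahr, whose protein also pairs with ARNT, had 20.2 RPKM. Arnt2, an ARNT paralog known mainly from neural tissue, had 15.3 RPKM (14.9 to 15.7), and the ratio of Arnt to Arnt2 per length was 0.448 (0.429 to 0.469), 0.664 with the lengths of the deposited accessions and 0.130 with the median transcript length. The histone acetyltransferase coactivator genes Crebbp and Ep300 had 15.0 and 12.1 RPKM. At the low end Sim2 had 3 reads and Sim1 10, both genes of neural PAS factors. Cited2, which encodes a competitor of HIF for its coactivators, and the neural PAS factor gene Npas3, both named after their values were seen, lay on either side of the list median, at 1.19 and 1.02 RPKM. Hif3a, the third alpha subunit gene, named after its value was seen, had 46 reads and 0.131 RPKM (0.0956 to 0.174).

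Genes known as HIF targets elsewhere spanned a wide range. In the group of glucose uptake and glycolysis, each of the 12 reached 10 reads and 7 exceeded the median over detected coding genes, with a list median of 8.99 RPKM. Aldoa, the aldolase gene, had 143 RPKM, Ldha, the lactate dehydrogenase gene, 78.6 RPKM, the glucose transporter gene Slc2a1 30.4 RPKM and the phosphoglycerate kinase gene Pgk1 18.9 RPKM. Aldoc and Pfkfb4 were lowest, at 0.514 and 0.965 RPKM. Processed copies of glycolysis genes are common in the mouse genome, and these levels are uncertain where reads were shared.

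Of the 24 targets with other roles, 23 reached 10 reads and 14 exceeded that same median, and the list median was 7.03 RPKM. Lox, whose enzyme cross-links collagen, had 347 RPKM. The collagen prolyl hydroxylase gene P4ha1 had 53.4 RPKM and the angiogenic factor gene Vegfa 45.3 RPKM, followed by the collagen lysyl hydroxylase gene Plod2 at 37.7 RPKM. Epo, the erythropoietin gene, had 1 read, and Ankrd37 had 21 reads, or 0.260 RPKM (0.161 to 0.397). Over both groups 21 of 36 targets exceeded 4.94 RPKM. Of all protein-coding genes 67.6% reached 10 reads, and 34.0% of those with a known length exceeded 4.94 RPKM. Being the median, it was exceeded by 6940 of the 13880 detected ones. These shares stand beside the counts of every wider list, and no difference from them was tested. Among the target genes Car9, Bnip3 and Ndrg1, only Ndrg1 exceeded 4.94 RPKM.

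**Figure D4:**
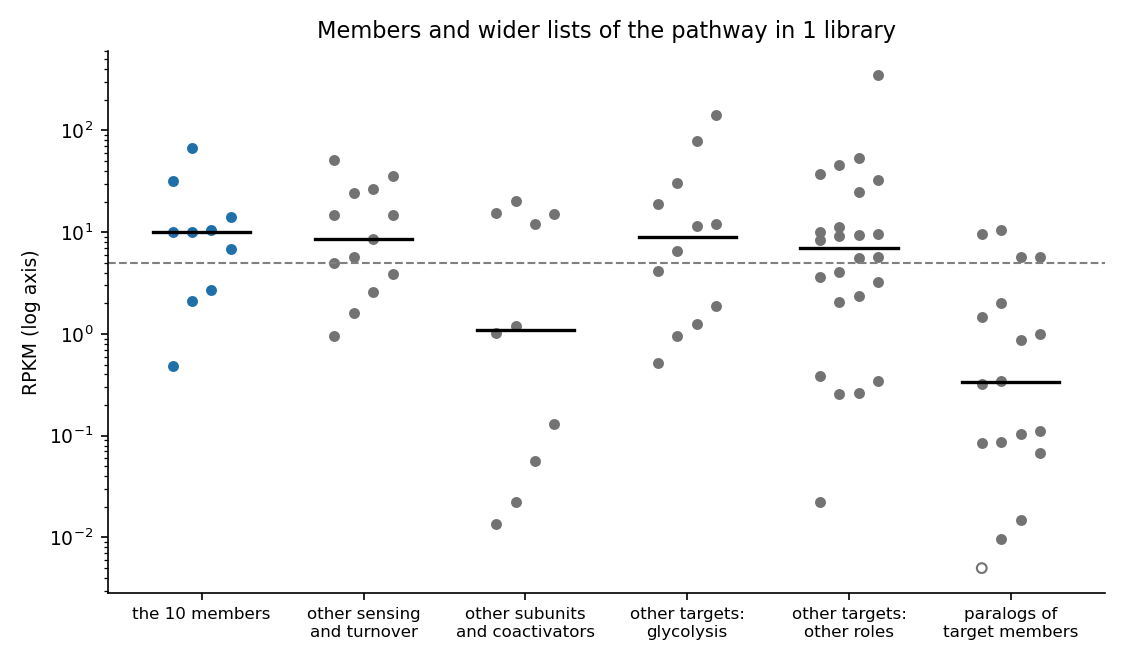
RPKM on a log axis of the 10 genes (blue) and of 5 wider lists (grey), with 1 point for each gene of a list. Bnip3l and Car12 are drawn both among the targets with other roles and among the paralogs. A black bar is at the median of each list and a dashed line at 4.94 RPKM, the middle of the detected coding genes. The open circle is Car6, with 0 reads, drawn at the bottom of the axis because 0 has no place on it. The other targets reach from 0.0223 RPKM (Epo) to 347 RPKM (Lox), and Car2 to Car15 and the other paralogs have the lowest median, 0.334 RPKM.

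The paralogs of the target genes give the members' place within their families. Of 18 paralogs, 14 reached 10 reads and 4 exceeded 4.94 RPKM. Bnip3l and Car12 are counted here and among the targets with other roles. Bnip3l, which encodes the related mitophagy receptor NIX, had 9.67 RPKM (9.24 to 10.1), and the ratio of Bnip3 to Bnip3l per length was 0.278 (0.247 to 0.314). Ndrg1 was above its relatives with the union of exons as length: Ndrg3 had 5.73 RPKM and Ndrg4 5.66 RPKM, and Ndrg1 exceeded Ndrg3 1.75-fold (1.66 to 1.84), or 1.25-fold with the lengths of the deposited accessions. Car13, a cytosolic carbonic anhydrase gene, led the carbonic anhydrases at 10.5 RPKM (9.96 to 11.1), and the ratio of Car9 to Car13 was 0.0455 (0.0344 to 0.0593), or 0.219 with the median transcript length. Car12, the other tumour-associated membrane form, had 139 reads, and the ratio of Car9 to Car12 was 1.38 with an interval of 0.995 to 1.88 that includes 1, and 0.766, the other direction, with the lengths of the deposited accessions. Car4 had 1 read, and Car6 had 0 reads, for which a limit of 3 reads is 0.0571 CPM and the upper end of the exact Poisson interval 0.0703 CPM.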

How the data were processed

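Gene expression of 1 fibroblast culture was measured by RNA sequencing, and the only sample formed its own group. The authors' deposited signal, 1 value for each of 24214 rows, had been divided by a library-wide factor. Of 20976 values above 0, 100% were whole multiples of a step of 1.176070476, the value of 1 read. The tolerance was 0.006 of that step. The submitters' processing notes name DESeq and mm10, with no role. The aligner, counter, strand setting and annotation release are not stated in the sources used here. The design had assumed descriptive measures on reads, and reads were recovered as those multiples. Intervals cover counting error only and treat reads as independent. Reads are not independent molecules, so the intervals may be too narrow. Rows with a copy suffix or a repeated name were summed.

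Gene lengths were unions of exons in GENCODE M21 (GRCm38, which mm10 denotes), found for 99.2% of the protein-coding genes, those with an NM accession. Renamed list genes were matched through RefSeq accessions, and all were found. A gene counted as detected at 10 reads. Ratios of reads per kilobase carry exact Clopper-Pearson intervals and levels exact Poisson intervals. No test across libraries was possible.

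The members and lists were chosen with earlier results of these data known. For each wider list the 4 highest and 2 lowest genes are named, and some genes were added with their values known: Hif1an, Hif3a, Cited2, Npas3 and Car12. A few items are not reported here. The recovery of reads was tested on simulated data. Alternatives were 3 other gene lengths, no division by length, other read totals, other detection limits, other backgrounds and unsummed rows. The software was scipy 1.17.1, pandas 2.3.3, numpy 2.4.6 and matplotlib 3.10.9 under Python 3.11.15.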

Additional observations from a re-analysis of the deposited data

How the results depend on the processing

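All 10 genes were detected at 1, 10 and 50 reads and with rows kept apart. Once all had 10 reads, the limit of 1 read could change nothing. Neither could rows kept apart, because each of the genes had 1 row. The number above the median was 7 with the longest transcript, with the transcript of the deposited accession and with genes of at least 50 reads as background, 6 with the median transcript length, under which Egln3 joined Bnip3, Epas1 and Car9 below, and 9 with all coding genes as background. The ratio of Epas1 to Hif1a was 0.0318 with the union of exons, 0.0259 with either the longest or the accession's transcript and 0.0182 with the median transcript. The ratio of Egln1 to Egln2 was 2.24, then 1.69 with the longest or accession's transcript, 2.87 without division by length and 0.884, a turned direction, with the median transcript. The ratio of Egln1 to Egln3 was 3.06, and 4.13 without division by length. The median transcript length is short where many fragments are annotated, as for Ndrg1 (591 bases), which it raised 11.2-fold. Totals of coding genes, or without the 100 most abundant genes, raised every level by 0.12 or 0.42 log2 units. List medians rose with shorter lengths, as from 8.51 RPKM to 14.5, 15.8 and 27.8 RPKM for the sensing and turnover list with the longest, the accession's and the median transcript. Of the other recomputed values, the levels of single genes and the list medians, 53 moved (levels beyond their counting intervals), all of them upward, and 22 did not. The upward direction was fixed in advance, because no other length exceeds the union of exons and both other read totals are smaller. Some of the 22 could not move. These were the unsummed rows of genes with 1 row, and the other lengths for Egln1 and Egln3, which have 1 annotated transcript each. The accession's transcript, and the other lengths for the wider lists, were chosen after seeing the data. There was no replicate to leave out. No paired analysis was possible because a single sample was analysed. The sum of 52494688 recovered reads sets 1 read at 0.0190 CPM. Car9, with 58 reads, has the widest relative interval of the 10 genes.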
